A study of Mus musculus with 28 samples.

Results

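Itsn1 and Itsn2 encode the intersectins, and these 2 genes are described here through the 6 RefSeq transcripts listed for them, among 23309 gene symbols and 30563 transcripts in all. Members were taken by gene symbol, and both genes were picked with the treatment contrast of their transcripts in view, from earlier work on the same data. The treatment values below are therefore a description with no test. Striatum, the part of the basal ganglia that receives cortical and dopaminergic input, was taken from C57BL/6J mice given haloperidol, an antipsychotic that blocks dopamine receptors (16 mice), or placebo (12 mice). The series calls the treatment chronic. Its dose and length, and the age and sex of the mice, are not stated in the sources used here. Libraries were made from total RNA with an Illumina TruSeq kit. The labels put them in 2 batches without saying of what, with 8 haloperidol and 8 placebo libraries in batch 1 and 8 and 4 in batch 2. Each library is 1 mouse, named by its group and its mouse number as replicate.

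Intersectins are scaffold proteins of clathrin-mediated endocytosis. Their amino-terminal EH domains and central coiled coil bind coat proteins such as epsins and Eps15, and their SH3 domains bind dynamin, synaptojanin and N-WASP. A short form ends after the SH3 domains, and a long form, best known from neurons for Itsn1, goes on into a DH-PH module that activates the GTPase Cdc42 and a C2 domain. At synapses intersectin 1 is known for its part in vesicle retrieval, and intersectin 2 is its paralog with the same domain order.

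The 3 Itsn1 forms start at the same base of chromosome 16 (mm9, plus strand, 91729616) and end at different places. The 39-exon form (NM_010587) ends at 91920824, is 13976 bases long with a last exon of 8719 bases, and encodes 1714 codons in its GENCODE match. The 29-exon form (NM_001110275) ends at 91871900, is 5364 bases long and encodes 1213 codons. The 16-exon form (NM_001110276) ends at 91832597, is 6101 bases long and encodes 621 codons. The 39-exon and 29-exon forms share 28 exons with 3901 bases. Of the 39-exon form 10075 bases lie in no other listed form, and of the 29-exon form 1463 bases, so each has a large stretch of its own from which fragments can be assigned. The 1463 bases lie within an intron of the 39-exon form, as do the 4019 bases found only in the 16-exon form. Unspliced RNA of the longest form would hold both stretches too, and its part in the levels was not tested.

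Itsn2 lies on the plus strand of chromosome 12 and its 3 forms start at 4599814. The 40-exon form (NM_001198968, 6070 bases, 1685 codons) and the 39-exon form (NM_011365, 5989 bases, 1658 codons) both end at 4720758 and both are long forms. They differ only in exon 17 of the 40-exon form, a cassette of 81 bases at chr12:4647719-4647799 that is wholly coding, adds 27 codons and makes up 1.33% of that form. The 17-exon form (NM_001198969, 2350 bases) ends at 4647945 and its last exon starts with the same 81 bases. Neither long form has a base that no other listed form holds, so their levels are told apart by fragments at this 1 exon and its junctions. The 81 bases lie within an intron of the 39-exon form. The 146 bases found only in the 17-exon form lie within an intron of both long forms. Unspliced RNA of the long forms would hold these stretches too, and its part in the levels was not tested. Fam228a, on the minus strand, shares 148 exon bases with the last exon of both long Itsn2 forms, and no source used here states if Cufflinks was run with strand information. No other listed gene shares exon bases with Itsn2, and none does with Itsn1.

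**Figure D1:**
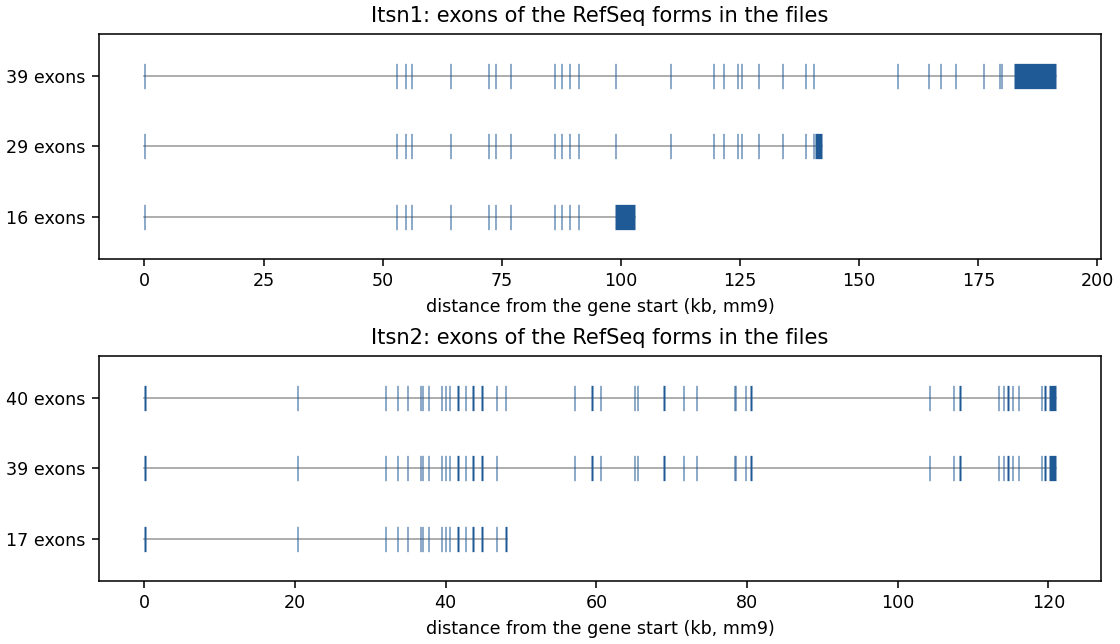
Exons of the 6 forms drawn to scale as blue blocks on a line, by distance in kb from the gene start; the smallest exons are widened so that they show. The Itsn1 forms end at 3 places, with the 8719-base last exon of the 39-exon form at the right, while the long Itsn2 forms differ by 1 small exon near 48 kb.

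The sequence on either side of the points where the forms part is shown because the measurements rest on it. It was read from the GENCODE M21 transcripts (GRCm38) cross-referenced to these RefSeq entries, whose internal exon lengths match those in the files, and it is coding throughout. First comes Itsn2 around exon 17, with the 81 cassette bases in capitals.
Itsn2 40-exon form: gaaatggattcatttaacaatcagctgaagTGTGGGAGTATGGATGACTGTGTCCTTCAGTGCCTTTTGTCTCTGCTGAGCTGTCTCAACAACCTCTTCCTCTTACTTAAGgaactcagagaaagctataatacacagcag
Itsn2 39-exon form: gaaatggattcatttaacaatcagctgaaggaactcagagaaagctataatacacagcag
The remaining 60 bases are the same in both. In the Itsn1 set, lower case is the exon before each branch point and capitals are the coding bases, or the first 60 of them, that follow it.
Itsn1 29-exon form: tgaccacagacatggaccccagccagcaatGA
Itsn1 39-exon form: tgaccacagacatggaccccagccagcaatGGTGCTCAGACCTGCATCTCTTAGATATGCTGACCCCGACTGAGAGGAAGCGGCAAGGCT
Itsn1 16-exon form: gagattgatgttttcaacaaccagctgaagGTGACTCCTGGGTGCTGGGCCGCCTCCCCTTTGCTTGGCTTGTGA
Itsn1 29-exon form, exon 16 to 17: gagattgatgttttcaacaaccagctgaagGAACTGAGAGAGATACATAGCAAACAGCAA
The last exon of the 29-exon Itsn1 form adds only 2 coding bases, which complete its stop codon, and the 39-exon form reads on. The 16-exon Itsn1 form and the Itsn2 cassette branch off after similar stretches. Of the 30 bases before the junction, 23 are identical between Itsn1 and Itsn2. Of the 30 bases after the junction in the 29-exon Itsn1 and 39-exon Itsn2 forms, 21 are identical. The bases that follow the branch in the 16-exon form and those of the cassette were not compared.

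Levels are FPKM (fragments per kilobase of a transcript, set against all mapped fragments of the library), as estimated by Cufflinks with an interval around each value. They were divided by a scaling factor per library where groups are compared, and are then called scaled FPKM. Read counts and absolute depth are unknown. Relative depth ranged from 0.433 to 1.73 and the RNA integrity number (RIN) from 7.08 to 8.97. RIN fell with the log2 sum of all FPKM (r = -0.73, permutation p = 1e-05, the smallest the 100000 resamples can give; Spearman's rho = -0.76, permutation p = 2e-05; n = 28). Spiny projection neuron markers were measured in all libraries, with 10 of 10 listed genes tested, and their summed level ranged from 2072 to 3485 scaled FPKM in haloperidol and from 1836 to 3837 in placebo. Markers of neighbouring tissue were present too. The summed level of 7 choroid plexus markers ranged from 109 to 9307 scaled FPKM in haloperidol and from 21.4 to 7798 in placebo, and that of 8 cortical excitatory neuron markers from 203 to 585 and from 207 to 485. Their part in the intersectin values was not tested.

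Itsn1 was the higher of the 2 genes per length, at 9.60 ± 1.98 scaled FPKM (SD, n = 28) against 3.12 ± 1.48 for Itsn2. Within Itsn1 the long 39-exon form and the short 29-exon form were about equally abundant. The 39-exon form measured 4.82 ± 0.604 scaled FPKM (SD, n = 28) and the 29-exon form 4.56 ± 1.47, a difference within the spread between libraries. In 16 of 28 libraries the 39-exon form was the higher, and in 10 of 28 the Cufflinks intervals of the 2 forms did not overlap, with the 39-exon form above in 8 and the 29-exon form above in 2. The 16-exon form was far lower, at 0.218 ± 0.0821 scaled FPKM, and it was above 0 in every library. Its share of the gene averaged 2.25% ± 0.692, against 51.3% ± 6.73 for the 39-exon form and 46.5% ± 6.55 for the 29-exon form.

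Within Itsn1 the long form was the steadier. Its scaled FPKM ranged 4.03 to 7.0 over the 28 libraries, and that of the 29-exon form from 2.48 to 7.08. The median half-width of the Cufflinks interval was 8.58% of the FPKM for the 39-exon form and 15.4% for the 29-exon form. It was 60.03% for the 16-exon form, whose values are therefore loose.

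**Figure D2:**
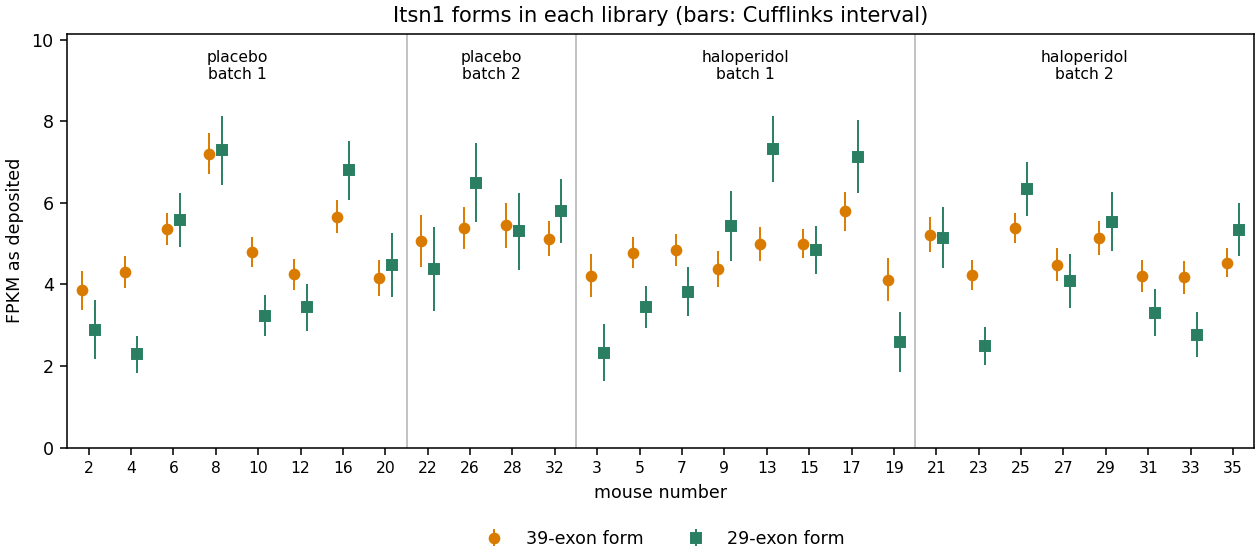
Deposited FPKM of the 39-exon (circles) and 29-exon (squares) Itsn1 forms in each library, by mouse number within treatment and batch; bars are the Cufflinks intervals. The 39-exon form stays in a narrow band, with placebo replicate 8 as its highest library, while the 29-exon form moves from below it to above it.

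Itsn2 was measured as its long forms. Together they averaged 3.04 ± 1.43 scaled FPKM (SD, n = 28), and the 17-exon form averaged 0.0828 ± 0.130, was listed at 0 in 14 of 28 libraries and had an interval half-width with a median of 111% in the libraries where it exceeded 0.01 FPKM. The 40-exon form averaged 1.86 ± 1.56 scaled FPKM and the 39-exon form 1.18 ± 0.755, a difference within the spread between libraries. The split between them was uneven from mouse to mouse: in 23 of 28 libraries their Cufflinks intervals did not overlap, with the 40-exon form above in 13 and the 39-exon form above in 10. In 7 libraries the 40-exon form was under 0.01 FPKM and in 3 the 39-exon form was. Forms listed near 0 in some libraries and well above it in others were not confined to Itsn2: of 5853 transcripts whose share within a gene was fitted, 2819 (48.2%) were under 0.01 FPKM in at least 1 library and at 1 FPKM or more in at least 1 other. Asked of at least 5 libraries on each side, it was 1391 (23.8%).

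The values by treatment were as follows for Itsn2. The 40-exon form measured 0.000263 at the lowest, 3.10 at the median and 4.23 scaled FPKM at the highest in placebo (mean 2.61 ± 1.42, SD, n = 12). In haloperidol it measured 0.000750, 0.646 and 3.94 (mean 1.30 ± 1.45, SD, n = 16). All 16 haloperidol libraries lay within the placebo range, whose low end is placebo replicate 10 alone. Without that library, an alternative added after the data were seen, the placebo range began at 1.17 scaled FPKM. It then held 6 of 16 haloperidol libraries, with the other 10 below it. Replicate 10 was left out on the values that chose the gene. No such count was made over all transcripts, so nothing is read from this one. Leaving out any other placebo library kept all 16 within the range. Of the haloperidol libraries 13 of 16 lay below the placebo median, with or without replicate 10. The 39-exon form went the other way, with 0.000693, 0.793 and 1.88 scaled FPKM in placebo (mean 0.748 ± 0.653) and 0.00101, 1.46 and 2.59 in haloperidol (mean 1.50 ± 0.674). Of the haloperidol libraries 10 of 16 lay within the placebo range of the 39-exon form and 2 of 16 below its placebo median. With batch in the model, the log2 difference between haloperidol and placebo was -1.19 (SE 0.41) for the 40-exon form and 0.84 (SE 0.28) for the 39-exon form, on the log2(scaled FPKM + 0.5) scale, which understates the change of low transcripts.

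As a share of Itsn2, the 40-exon form made up 0.0161% at the lowest, 75.5% at the median and 99.98% at the highest in placebo (mean 73.2% ± 26.97, SD, n = 12), and 0.0351%, 31.7% and 97.5% in haloperidol (mean 33.8% ± 32.99, SD, n = 16). The placebo range held all 16 haloperidol libraries only through placebo replicate 10. The other 11 placebo shares began at 60.4%, and without replicate 10 the range held 3 of 16 haloperidol libraries, with 13 below it. Leaving out any other placebo library kept all 16 within the range. Replicate 10 was left out after the data were seen, on the values that chose the gene. The same count was not made over all shares, so nothing is read from it. Of the haloperidol libraries 14 of 16 lay below the placebo median, with or without replicate 10. The 39-exon form took up most of the rest, at 24.97% ± 27.9 in placebo and 63.2% ± 32.98 in haloperidol. The 40-exon form was the higher of the 2 long forms in 11 of 12 placebo and 6 of 16 haloperidol libraries, and it was under 0.01 FPKM in 1 placebo and 6 haloperidol libraries. Where intervals did not overlap, it was the higher in 9 placebo and 4 haloperidol libraries, and the 39-exon form was the higher in 1 and 9.

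**Figure D3:**
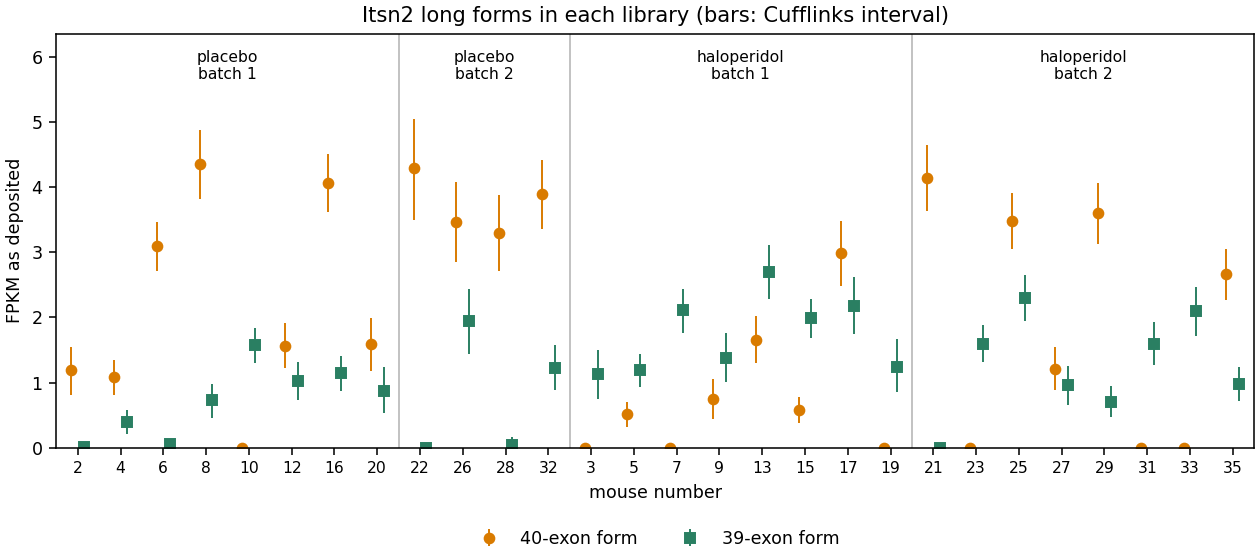
Deposited FPKM of the 40-exon (circles) and 39-exon (squares) long Itsn2 forms in each library, by mouse number within treatment and batch; bars are the Cufflinks intervals. The 40-exon form is the higher in 11 of 12 placebo and 6 of 16 haloperidol libraries. It is under 0.01 FPKM in 1 of 12 placebo and 6 of 16 haloperidol libraries.

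On the log2 scale of the ratio to the rest of the gene, the 40-exon share differed by -2.02 (SE 0.53) and the 39-exon share by 1.95 (SE 0.54) between haloperidol and placebo. Within batch 1 the 40-exon share differed by -2.0 (SE 0.55) and within batch 2 by -2.07 (SE 1.01). The 4 placebo libraries of batch 2 had 40-exon levels of 4.12, 3.35, 3.21 and 3.91 scaled FPKM for replicates 22, 26, 28 and 32, all high. These are the values that chose the gene, and nothing is supported with them. Over all features fitted by limma, 0% of 5853 shares, 0.00653% of 15324 transcripts and 0.00784% of 12760 genes passed an adjusted p of 0.05 for treatment. Unadjusted, 304 shares, 945 transcripts and 819 genes were under 0.05.

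The Itsn2 gene total differed less between treatments than its forms. It ranged from 1.38 to 5.36 scaled FPKM with a median of 3.15 in placebo and from 1.23 to 5.60 with a median of 2.30 in haloperidol, and the groups overlapped almost wholly. The log2 difference was -0.28 (SE 0.21), at -0.12 (SE 0.29) within batch 1 and -0.51 (SE 0.27) within batch 2. With the log2 sum of all FPKM in the model it was -0.01 (SE 0.05). In bulk tissue, fewer cells that express a gene and less RNA of it per cell cannot be told apart.

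For Itsn1 the treatment groups overlapped almost wholly. The 39-exon form measured 4.03, 5.07 and 7.0 scaled FPKM (lowest, median, highest) in placebo and 4.13, 4.66 and 5.57 in haloperidol, with 14 of 16 haloperidol libraries below the placebo median. Its log2 difference was -0.08 (SE 0.06). The 29-exon form measured 2.48, 4.82 and 7.08 in placebo and 2.52, 4.33 and 7.0 in haloperidol, a log2 difference of -0.12 (SE 0.17). Its share was 46.8% ± 5.97 (SD, n = 12) and 46.2% ± 7.14 (SD, n = 16), and the gene total differed by -0.09 (SE 0.11) on the log2 scale. The 16-exon form averaged 0.213 ± 0.0879 scaled FPKM in placebo and 0.222 ± 0.0801 in haloperidol. It and the 17-exon Itsn2 form lay under the minimum mean of 1 FPKM, so 4 of the 6 transcripts entered the fits.

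Batch did not enter the choice of the genes and was tested. None of the 4 transcripts, 4 shares and 2 gene totals passed in the limma fit, where 0.15% of transcripts, 0% of shares and 0.376% of genes did. Unadjusted, 3714 transcripts, 1129 shares and 3409 genes were under 0.05. The largest intersectin difference was that of the 40-exon Itsn2 share, higher in batch 2 by 1.12 on the log2 scale (SE 0.53, p = 0.0438, limma adjusted p = 0.255), at 58.8% ± 38.4 (SD, n = 12) against 44.7% ± 34.1 (SD, n = 16). The Itsn2 total differed by 0.41 (SE 0.21, limma adjusted p = 0.198), and the 29-exon Itsn1 share by 0.09 (SE 0.16, limma adjusted p = 0.754). RIN was higher in batch 2, at 8.33 ± 0.507 (SD, n = 12), than in batch 1, at 7.75 ± 0.379 (SD, n = 16). With RIN in the model the batch differences were 0.33 (SE 0.59) for the 40-exon Itsn2 share, -0.12 (SE 0.18) for the Itsn2 total and -0.20 (SE 0.16) for the 29-exon Itsn1 share, so the last 2 changed sign. Whether the treatment difference itself differed between batches could be judged only coarsely. For the 40-exon Itsn2 share the interaction was -0.07 (95% confidence interval from -2.34 to 2.20, limma adjusted p = 0.993), and for the 29-exon Itsn1 share -0.26 (from -0.95 to 0.43, limma adjusted p = 0.884). Here 0% of shares passed, with 301 under 0.05 unadjusted.

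The ratio of long to short Itsn1 moved with RNA integrity. Libraries of higher RIN had relatively more of the 29-exon form: the log2 ratio of the long form to both short forms fell with RIN (r = -0.57, permutation p = 0.00192, adjusted p = 0.00576 over 6 relations; Spearman's rho = -0.63, permutation p = 0.00047, adjusted p = 0.00282; n = 28). Without the 2 libraries farthest from the median RIN r was -0.67 (permutation p = 0.00029). Within batch 1, r was -0.90 (permutation p = 1e-05, the smallest the resamples can give, n = 16). Within batch 2 it was -0.29 (permutation p = 0.356, n = 12), of the same sign, and did not pass. Whether the relation differed between the batches was not tested. The lowest 29-exon share, 34.1%, was in placebo replicate 4, which also had the lowest RIN, 7.08, and the highest, 57.7%, in haloperidol replicate 13 with a RIN of 8.60. Haloperidol replicate 33 stood apart with a share of 39.5% at a RIN of 8.75.

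Against log2 relative depth the Itsn1 ratio gave r = -0.32 (permutation p = 0.0938, adjusted p = 0.141; Spearman's rho = -0.29, permutation p = 0.128, adjusted p = 0.154) and did not pass. Without the 2 libraries farthest from the median depth r was -0.24 (permutation p = 0.235). The ratio of long to short Itsn2 rose with RIN (r = 0.57, permutation p = 0.00166, adjusted p = 0.00576; Spearman's rho = 0.59, permutation p = 0.0013, adjusted p = 0.0039). Without the 2 libraries farthest from the median RIN r was 0.52 (permutation p = 0.00686), within batch 1 it was 0.57 (permutation p = 0.0206) and within batch 2 0.36 (permutation p = 0.253). With the short Itsn2 form near 0, this ratio follows the long forms, and at a pseudocount of 0.1 it no longer passed (r = 0.23, adjusted p = 0.358). Against depth it gave r = 0.29 (permutation p = 0.143, adjusted p = 0.172; rho = 0.36, permutation p = 0.061, adjusted p = 0.0915) over all libraries, 0.71 (permutation p = 0.0022) within batch 1 and 0.02 (permutation p = 0.957) within batch 2. Without the 2 libraries farthest from the median depth r was 0.40 (permutation p = 0.044). The ratio of the 40-exon to the 39-exon Itsn2 form, added after the data were seen, did not pass against RIN (r = 0.40, permutation p = 0.035, adjusted p = 0.07; rho = 0.40, permutation p = 0.0359, adjusted p = 0.0719) or against depth (r = -0.05, permutation p = 0.805, adjusted p = 0.805; rho = -0.02, permutation p = 0.902, adjusted p = 0.902). Its r with RIN was 0.21 without the 2 libraries farthest from the median (permutation p = 0.299), 0.19 within batch 1 (permutation p = 0.479) and 0.48 within batch 2 (permutation p = 0.118).

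Fits with RIN beside treatment and batch, also added after the data were seen, gave the size of these relations. The 29-exon Itsn1 form rose by 0.65 on the log2 scale per RIN unit (SE 0.15, limma adjusted p = 0.000848) and its share by 0.51 (SE 0.16, adjusted p = 0.0131). The 39-exon Itsn1 form changed by 0.13 (SE 0.07, limma adjusted p = 0.1) and did not pass. The 40-exon Itsn2 form rose by 1.42 (SE 0.39, limma adjusted p = 0.00332), while the 39-exon form changed by -0.07 (SE 0.32, adjusted p = 0.862). The gene totals rose by 0.39 for Itsn1 (SE 0.10, limma adjusted p = 0.0013) and by 0.91 for Itsn2 (SE 0.18, adjusted p = 0.000173). The 39-exon Itsn2 share fell by 1.58 (SE 0.55, limma adjusted p = 0.0269), and the 40-exon share changed by 1.38 (SE 0.56, adjusted p = 0.0555) without passing.

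Calls on RIN were frequent in these libraries. They were made for 62% of transcripts, 69.7% of genes and 37.5% of shares, and those of the intersectins are to be read against that. With the log2 sum of all FPKM as a further term, the slope was -0.11 (SE 0.09, limma adjusted p = 0.812) for the 29-exon Itsn1 form and -0.05 (SE 0.08, limma adjusted p = 0.858) for the Itsn2 total. In that fit RIN was called for 0 of 15324 transcripts, 0 of 5853 shares and 0 of 12760 genes by limma (1173, 303 and 1096 under 0.05 unadjusted), so the loss of the calls was not particular to the intersectins. Mean RIN was 8.05 ± 0.504 (SD) for the 16 haloperidol and 7.92 ± 0.554 (SD) for the 12 placebo libraries. With RIN in the model the treatment difference of the 40-exon Itsn2 share was -2.07 (SE 0.49), and with the log2 FPKM sum instead it was -1.67 (SE 0.47), against -2.02 without either. These values too are a description, since the gene was chosen with this contrast in view.

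**Figure D4:**
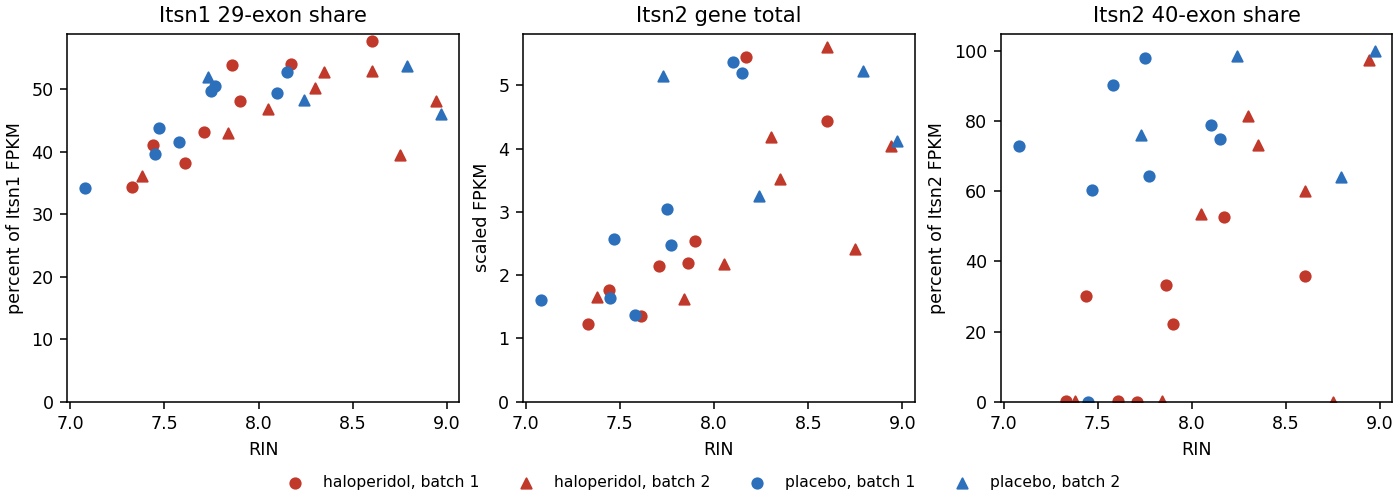
Share of the 29-exon form in Itsn1, Itsn2 gene total in scaled FPKM and share of the 40-exon form in Itsn2, each against RIN; each point is 1 library, red haloperidol and blue placebo, circles batch 1 and triangles batch 2. Over both batches together the 29-exon share climbs with RIN from 34.1%. Haloperidol replicate 33 is low for its RIN of 8.75, at 39.5%, and the 40-exon share is scattered between 0.0161% and 99.98%.

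**Figure D5:**
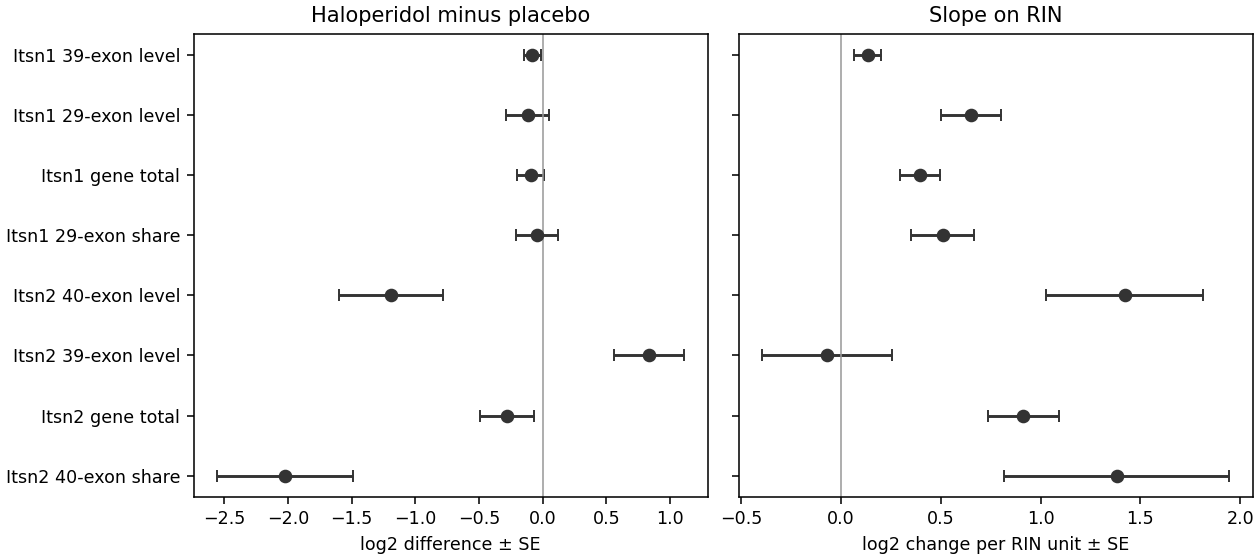
Log2 differences between haloperidol and placebo (left) and log2 changes per RIN unit (right) of intersectin levels, gene totals and shares; points are limma estimates and bars are ± 1 SE. On the left the Itsn2 forms lie on opposite sides of 0, at -1.19 and 0.84, with Itsn1 near 0; on the right the 29-exon Itsn1 and 40-exon Itsn2 forms have the larger slopes of their genes.

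Genes for the proteins that intersectins work with showed no call for treatment at the RNA level. Of 96 genes tested in 5 lists, 0 passed in limma, where 0.00784% of all genes did. Among intersectin binding partners 24 of 25 were tested, and the median log2 difference was -0.08, with 6 above 0 and 2 under an unadjusted p of 0.05. The median over all 12760 genes was 0.00, with 50.9% above 0. The smallest p belonged to Ap2b1, a subunit of the AP-2 clathrin adaptor, with 62.4 ± 3.69 scaled FPKM under haloperidol (SD, n = 16) and 67.1 ± 4.01 under placebo (SD, n = 12) (log2 difference -0.10, SE 0.04, limma adjusted p = 0.568). Eps15, an EH-domain coat protein, measured 27.3 ± 8.44 and 33.3 ± 10.6, and its paralog Eps15l1 18.8 ± 2.60 and 17.4 ± 2.89, with the same adjusted p.

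The clathrin coat and adaptor list had 24 of 25 genes tested, a median of 0.00 with 11 above 0, and 2 under 0.05 unadjusted, which were Ap2b1 and Eps15 again. Next by p was Cltb, a clathrin light chain, at 118 ± 26.8 scaled FPKM in haloperidol and 103 ± 26.4 in placebo. For scission, curvature and uncoating, 23 of 23 were tested and the median was -0.05 with 9 above 0 and 1 under 0.05 unadjusted. That gene was Synj2, a phosphoinositide phosphatase, at 6.54 ± 1.79 and 8.45 ± 3.10. Its relative Synj1, which acts in vesicle uncoating, measured 20.3 ± 7.90 and 25.05 ± 10.7, and Pacsin2, a membrane-curving F-BAR protein, 15.8 ± 0.750 and 16.6 ± 1.58. None of these differences passed (limma adjusted p = 0.568 for each).

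Among genes of Cdc42 and branched actin, 26 of 27 were tested, with a median of -0.06, 10 above 0 and 1 under 0.05 unadjusted. The leading genes were Arpc1b, an Arp2/3 subunit (15.8 ± 4.86 scaled FPKM in haloperidol, 13.8 ± 5.27 in placebo), the kinase Pak1 (101 ± 14.3 and 113 ± 23.3), and Wipf2, a WASP-interacting protein (10.1 ± 0.872 and 11.1 ± 1.25). Other Cdc42 exchange factors and GTPase activators had 17 of 19 tested, a median of -0.12, 2 above 0 and 0 under 0.05 unadjusted. Their leading genes were the exchange factor Vav3 (1.45 ± 0.296 and 1.72 ± 0.535) and the GTPase activators Arhgap17 (3.17 ± 0.317 and 3.40 ± 0.245) and Arhgap32 (15.4 ± 6.02 and 19.3 ± 8.22). With RIN, 33.5% of all genes rose and 36.3% fell. In the lists, 12 of 24 binding partners rose and 4 fell, 10 of 24 coat and adaptor genes rose and 9 fell, 10 of 23 scission genes rose and 6 fell, 11 of 26 Cdc42 and actin genes rose and 8 fell, and 13 of 17 other exchange factors and activators rose and 1 fell.

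The genes whose levels ran most closely with the intersectins over the 28 libraries, after treatment and batch means were removed, were picked by Pearson's r and are given as a description. For the Itsn1 total they were Ncor1, a nuclear receptor corepressor (r = 0.97), Tnrc6b, a scaffold of microRNA silencing (0.97), and Dmd, which encodes dystrophin (0.97). For the Itsn2 total they were Ireb2, an iron-regulatory RNA-binding protein (r = 0.99), 4932438A13Rik (0.98) and the ubiquitin protease Usp34 (0.98). For the long to short ratio of Itsn1 they were Polr2l, an RNA polymerase subunit (r = 0.94), Med22, a Mediator subunit (0.93), and the palmitoyltransferase Zdhhc3 (0.93). For that of Itsn2 they were Smek2 (r = 0.90), Fam49a (0.89) and the transcription factor subunit Nfya (0.88). All 12 genes passed the test for RIN, as 69.7% of all 12760 genes did, with slopes from -0.72 for Polr2l to 1.18 for Usp34 per RIN unit. They were picked for running with measures that moved with RIN themselves, so this count adds nothing. What lies behind the correlations was not tested.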

How the data were processed

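The members and gene lists were chosen with earlier results of these data known. The authors deposited, for each of 28 striatal RNA libraries, a table of RefSeq transcripts with FPKM, interval bounds and coverage as attributes. Per the submitters' processing notes, reads were aligned with TopHat2 2.0.6 to mm9 and quantified with Cufflinks, whose version no source used here states. Gene FPKM was summed over transcripts of a symbol, and each library was scaled by its median ratio to the geometric mean of all libraries (median-of-ratios). Features of mean FPKM 1 or more (shares: transcript and rest of the gene each 0.5 or more) were fitted with limma 3.58.1 in R 4.3.3 (lmFit, eBayes with trend) on log2(scaled FPKM + 0.5), or the log2 ratio of a transcript to the rest of its gene, with treatment and batch, 2-sided, Benjamini-Hochberg over all features at 0.05. A form ending within 1000 bases of the gene's farthest 3' end counted as long. Ratios were correlated with RIN and relative depth by 2-sided permutation tests with 100000 resamples (Python 3.11.15, NumPy 2.4.6, SciPy 1.17.1). Named genes were, by rule, all intersectin transcripts, 3 members of each list with the smallest treatment p, the 3 genes most correlated with each intersectin measure, and genes sharing exon bases. The fits were tested on simulated data. Alternatives changed scaling, pseudocount, filter, covariates, weights and libraries.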

Additional observations from a re-analysis of the deposited data

Results flagged for a closer look

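Within treatment and batch, 40 groups of intersectin values were screened for a library far from the rest, and 4 were found. For independent, normally distributed values chance flags about 1 in 20, or 2. These values include levels near 0, and shares and totals of the same genes. The 2 numbers are therefore not to be compared. The 39-exon Itsn1 form was at 7.0 scaled FPKM in placebo replicate 8 of batch 1, where the other 7 libraries lay between 4.03 and 5.42. The share of the 40-exon Itsn2 form was 0.0161% in placebo replicate 10 of batch 1, where the others lay between 60.4% and 98.1%. The 17-exon Itsn2 form was at 0.270 scaled FPKM in haloperidol replicate 33 of batch 2, where the others lay between 0 and 0.105. The same form was at 0.00142 scaled FPKM in placebo replicate 32 of batch 2, where the other 3 libraries were listed at 0, so any value above 0 would have been flagged.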

How the results depend on the processing

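No paired analysis was possible because haloperidol and placebo libraries share no mouse number. No treatment difference of the Itsn2 forms changed direction, but they were picked with this contrast in view, so a steady direction supports nothing. With each library left out the 40-exon share differed by -2.27 to -1.87. Over the alternatives that changed the processing, covariates or batch it differed by -3.32 to -1.48. Over the same alternatives some Itsn1 treatment differences lay on both sides of 0. They ranged from -0.24 to 0.03 for the gene total and from -0.34 to 0.09 for the 29-exon form. For the 29-exon share the range was -0.20 to 0.11. With a minimum mean of 2 FPKM the Itsn2 forms and their shares could not be fitted. The count of endocytic list genes called for treatment was 0 under every alternative run. Calls on batch among intersectin features rose from 0 to 1 with array weights (transcripts, gene totals) and with the log2 FPKM sum as covariate (gene totals); array weights called 36% of all transcripts and 51.8% of all genes for batch, and the FPKM sum 0.956% of genes. The interaction of the 40-exon Itsn2 share turned positive with quantile normalization (0.0036), RIN (0.38) or the log2 FPKM sum (0.45) as covariate, array weights (0.75) and without libraries of RIN under 7.5 (0.85), and ranged from -0.51 to 0.35 with each library left out. The batch difference of the 29-exon Itsn1 share turned negative with RIN (-0.20) or the log2 FPKM sum (-0.14) as covariate, without libraries of RIN under 7.5 (-0.025) and in haloperidol libraries alone (-0.0093), as did that of the Itsn2 total with RIN (-0.12) or the log2 FPKM sum (-0.012).

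The slope of the 29-exon Itsn1 share on RIN lost its call without libraries of RIN under 7.5 (0.27), in batch 2 alone (0.17), in placebo libraries alone (0.37) and in haloperidol libraries alone (0.58). In the first 3 of these settings 0, 0 and 1 of all 5853 shares were called for RIN (1597, 710 and 761 under 0.05 unadjusted), and in the last 1590 (27.2%). With the log2 FPKM sum as covariate RIN slopes turned negative for that share (-0.012), the 39-exon Itsn1 (-0.079), 29-exon Itsn1 (-0.11) and 40-exon Itsn2 (-0.18) forms and the totals of Itsn1 (-0.11) and Itsn2 (-0.054). The slope of the 40-exon Itsn2 share passed at a pseudocount of 0.1 (2.53), with array weights (1.54) and with no batch term (1.56), and ranged from 1.07 to 1.67 with each library left out, passing without placebo replicate 26 or haloperidol replicates 29 or 33. That of the 39-exon Itsn2 form, near 0, turned positive with a common sum (0.16), a pseudocount of 1 (2.8e-05), array weights (0.052), without libraries of RIN under 7.5 (0.021) and in batch 1 alone (0.49), and ranged from -0.24 to 0.18 with each library left out. The cause was not tested.

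The relation of the Itsn1 long to short ratio with RIN lost its call in batch 2 alone (r = -0.29), as did that of Itsn2 (r = 0.36), which also lost it at a pseudocount of 0.1 (r = 0.23). The Itsn2 ratio passed against depth in batch 1 alone (r = 0.71) and without placebo replicate 22, with r from 0.20 to 0.44 over the libraries left out. The ratio of the 40-exon to the 39-exon Itsn2 form turned positive against depth in batch 1 alone (r = 0.19) and ranged from -0.16 to 0.10 with each library left out; against RIN it passed without 5 of the libraries in turn. What the absolute depth limits is unknown; Cufflinks intervals were widest for the 16-exon Itsn1 and 17-exon Itsn2 forms, with median half-widths of 60.03% and 111% of the FPKM.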
